A study of Macaca mulatta with 19 samples.

Results

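MYLIP, ABCA1, APOE, APOC1, SOAT1, CES1, LIPA, NPC1 and NPC2 are genes by which a cell takes up, stores, moves and exports cholesterol. These 9 genes, of 32386 in the count table, were chosen by symbol: 8 carry their symbol in the table, and NPC2 was found through a reference table that pairs identifiers with symbols. Their identifiers are ENSMMUG00000015474 for MYLIP, ENSMMUG00000020608 for ABCA1, ENSMMUG00000014305 for APOE, ENSMMUG00000028749 for APOC1, ENSMMUG00000003768 for SOAT1, ENSMMUG00000009454 for CES1, ENSMMUG00000047356 for LIPA, ENSMMUG00000021484 for NPC1 and ENSMMUG00000006563 for NPC2. RNA was sequenced from luteinized granulosa cells of the periovulatory follicle that rhesus macaques had selected naturally, 1 library from each of 19 animals. From near menarche and for about 3.5 years the animals were fed either standard chow or a diet of Western style (WSD), and they carried an implant with cholesterol (C) or with testosterone (T), the latter raising testosterone 4 to 5 fold. The groups were Chow+C (the control, n = 4), Chow+T (n = 4), WSD+C with 5 animals and WSD+T with 6, from 10 animals enrolled per treatment, and all follicles came from controlled ovulation cycles. The oocyte of the same follicle was classed as MI (metaphase I, 8 libraries), MII (metaphase II, 4), Degenerating (6) or GV (germinal vesicle, 1). MI oocytes came from Chow+C (3), WSD+C (3) and WSD+T (2), and MII oocytes from Chow+T (2), Chow+C (1) and WSD+T (1). Degenerating oocytes came from WSD+T (3), WSD+C (2) and Chow+T (1) and the GV oocyte from Chow+T, so that treatment and oocyte class are partly confounded. The control implants held a sterol too, cholesterol, and the labels name no sort of the aspirated cells and no batch.

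Luteinizing granulosa cells turn cholesterol into progesterone, and take much of it from lipoproteins. Cholesteryl esters that enter with lipoproteins are cut in lysosomes by LIPA, and the free cholesterol is handed by NPC2 to NPC1 and leaves the lysosome. SOAT1 re-esterifies cholesterol for storage in lipid droplets, while ABCA1 loads it, with apolipoproteins such as APOE, onto particles that leave the cell. MYLIP, also called IDOL, is a ubiquitin ligase that marks lipoprotein receptors for degradation and is induced by the sterol sensing LXR receptors, as are ABCA1, APOE and APOC1. Macrophages, which enter the follicle around ovulation, use the same genes, so that the same transcripts can come from both cell types.

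Gene counts per library ranged from 28832132 to 56385679, and the 9 genes had between 46 and 99548 counts in a library. The deepest libraries were replicate 4 of WSD+T (56385679), replicate 1 of Chow+T (54804607) and replicate 3 of WSD+T (53309167), all Degenerating. Replicate 3 of WSD+C came next with 45280532. The shallowest was replicate 2 of Chow+C (28832132), which also had the lowest share of reads in genes, 49.1%. Whether depth bears on the comparison of oocyte classes or treatment groups was not tested. Levels are given as CPM, read counts relative to the size of the library, scaled by TMM. They can be compared between libraries but not between genes, since gene lengths were not used. Of 12 granulosa markers, 11 were at 1 CPM or more in each library. Of 13 macrophage markers 2 were, and 4 had no count in at least 1 library. The summed macrophage markers were 14.8 to 23.0 CPM in Chow+C, 15.8 to 157.9 CPM in Chow+T, 11.6 to 368.4 CPM in WSD+C and 12.6 to 2860 CPM in WSD+T. WSD+T 6, that is replicate 6 of WSD+T, held the highest of these values. WSD+C 4 stood apart from the other libraries, with summed erythroid markers at 101800 CPM, summed smooth muscle markers at 2621 CPM and the lowest summed granulosa markers, 4359 CPM. Where a difference named for a member rested on either library, its value without that library is given beside it. In such bulk samples fewer cells of a type and less RNA per cell cannot be told apart.

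MYLIP was the member that differed most by the class of the oocyte. In libraries with an MI oocyte it was at 1.12 to 3.32 CPM, with a median of 1.93 CPM (mean 2.21 ± 0.78, SD, n = 8). In the 4 MII libraries it was at 4.89, 5.66, 8.97 and 12.7 CPM (8.05 ± 3.55). In the 6 Degenerating libraries it was at 3.86 to 41.5 CPM, with a median of 6.04 CPM (16.7 ± 18.1), and in the single GV library at 1.14 CPM. The MI libraries overlapped neither the MII nor the Degenerating libraries, whereas MII and Degenerating overlapped each other. Of the genes tested, 0.227% were higher in MII than in MI without overlap and 0.0668% were higher in Degenerating than in MI without overlap (10 of 14976 genes). MYLIP was the sole member among them.

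Over all libraries the MYLIP levels of MI did not overlap those of MII or Degenerating, so they cannot overlap inside a treatment group. The values by group are therefore given as a description only. In Chow+C the 3 MI libraries reached at most 3.13 CPM and the MII library was at 5.66 CPM. In WSD+C the 3 MI libraries reached at most 2.82 CPM and the Degenerating libraries were at 6.97 and 41.5 CPM. In WSD+T the MI libraries were at 1.80 and 3.32 CPM, the MII library was at 4.89 CPM and the Degenerating libraries were at 3.86, 5.10 and 38.4 CPM. Chow+T had no MI library.

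**Figure D1:**
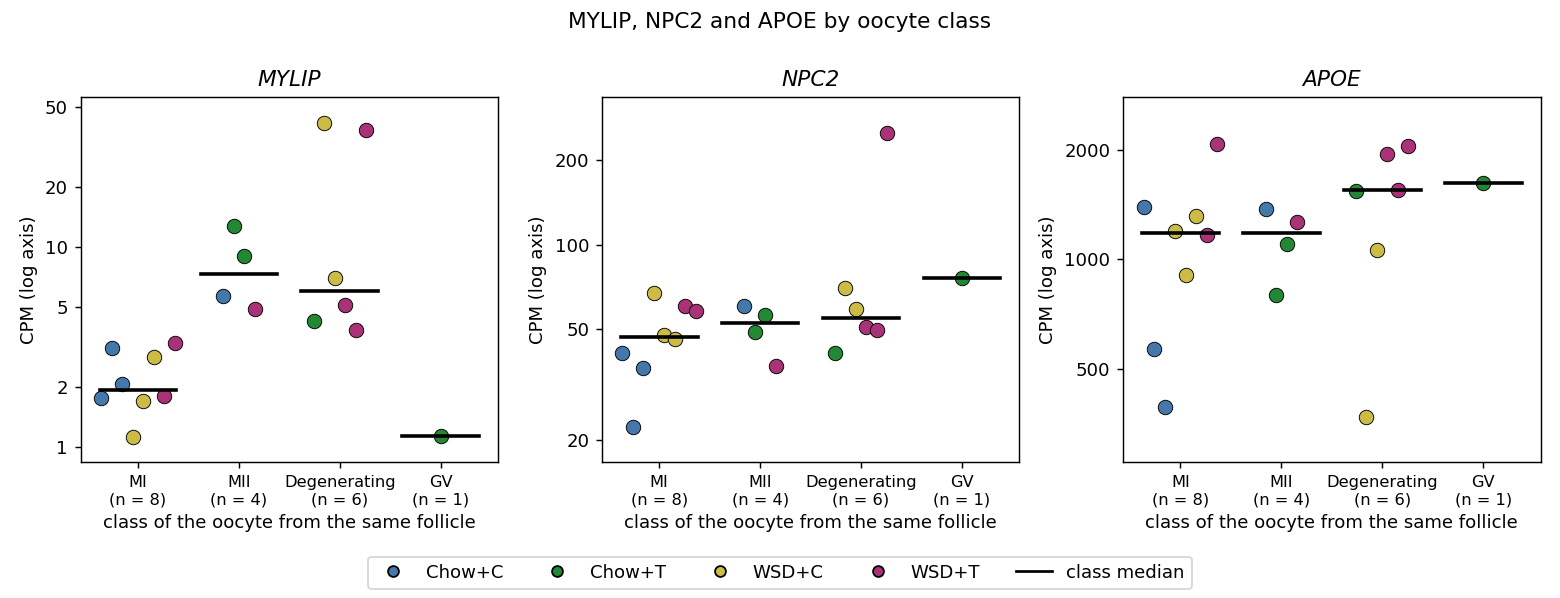
CPM on a log axis of MYLIP, NPC2 and APOE in each library by oocyte class, coloured by treatment group, with the class median as a line. MYLIP is at most 3.32 CPM in the 8 MI libraries and at least 3.86 CPM in the MII and Degenerating libraries, while the classes overlap for NPC2 and APOE.

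The fitted difference, with the treatment group as a term, was 7.32-fold higher in Degenerating than in MI (95% CI 2.83 to 18.95, log2 fold change 2.87, SE 0.64). Its p in edgeR's quasi-likelihood test was 0.000825 and its adjusted p over 14976 genes was 0.164, which was also the smallest of any gene, so no gene passed (0% called, against 14.3% at an unadjusted p under 0.05). For MII against MI the difference was 3.90-fold (log2 95% CI 0.29 to 3.64, SE 0.79), with an adjusted p of 1, where 0% of genes were called and 3.91% had an unadjusted p under 0.05. Leaving out 1 library moved its log2 fold change to as low as 1.27 (without Chow+T 1) and as high as 2.71 (without WSD+T 1). An exact permutation test, two-sided, of the mean log2 CPM gave p = 0.000333 for Degenerating against MI, the smallest that 3003 arrangements allow, and p = 0.00202 for MII against MI. Unlike the fit, these exact tests held no term for the treatment group, so they cannot separate oocyte class from treatment. They were chosen after the values were seen, are 2 of 18 run over the members and both oocyte comparisons, and are not adjusted. None of the other 16 had a p under 0.1. DESeq2 put MYLIP past the threshold in Degenerating against MI (adjusted p = 0.000421, log2 fold change 2.89), where it called 801 genes in all, and limma-voom did not (adjusted p = 0.397, log2 fold change 2.26).

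Part of the size of this difference rested on WSD+C 4 and WSD+T 6, both Degenerating. Leaving out WSD+C 4 alone gave MYLIP a log2 fold change of 2.12, and leaving out WSD+T 6 alone gave 2.11. Without both, the log2 fold change of MYLIP was 1.10 (adjusted p = 0.971). The 4 remaining Degenerating libraries were at 3.86 to 6.97 CPM. Leaving out the highest libraries could not make the classes overlap. The exact permutation p of 0.00404 without both comes from values already seen to separate. Markers of white blood cells moved with MYLIP. WSD+C 4, the library with the most MYLIP, also had the highest summed erythroid, smooth muscle and oocyte markers (101800, 2621 and 231.9 CPM). The macrophage score, the mean log2 CPM of CD163 and MRC1, had a median of -0.81 in MI, 1.09 in MII and 2.29 in Degenerating, with ranges that overlapped. With this score as a covariate the log2 fold change of MYLIP was 1.24 in Degenerating against MI (adjusted p = 0.999), and with the leukocyte score, the mean log2 CPM of 11 genes of white blood cells and added after the data were seen, it was 0.49 (adjusted p = 1). Over all libraries MYLIP rose with the macrophage score, as given further below, though not in strict order. As examples, Chow+T 3, an MII library with a score of -1.07, held 8.97 CPM. WSD+C 3, an MI library with a score of 1.32, held 2.82 CPM. The cause of the MYLIP difference was not tested.

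By treatment, MYLIP was at 1.76, 3.13, 2.06 and 5.66 CPM in Chow+C 1 to 4 and at 4.26, 12.7, 8.97 and 1.14 CPM in Chow+T 1 to 4. It was at 1.12, 1.70, 2.82, 41.5 and 6.97 CPM in WSD+C 1 to 5, and in WSD+T it ranged from 1.80 to 38.4 CPM with a median of 4.38 CPM. The 4 groups overlapped, and a single library set the top of each WSD group. Its fitted log2 fold change in WSD+C against Chow+C was 1.78 (SE 1.04, adjusted p = 0.83) and was -0.0011 without WSD+C 4. In WSD+T against Chow+C it was 1.60 (95% CI -0.50 to 3.70, adjusted p = 0.727) and 0.27 without WSD+T 6. With oocyte class as a term and without the GV library, it was 0.24 and 0.04 in these comparisons.

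**Figure D2:**
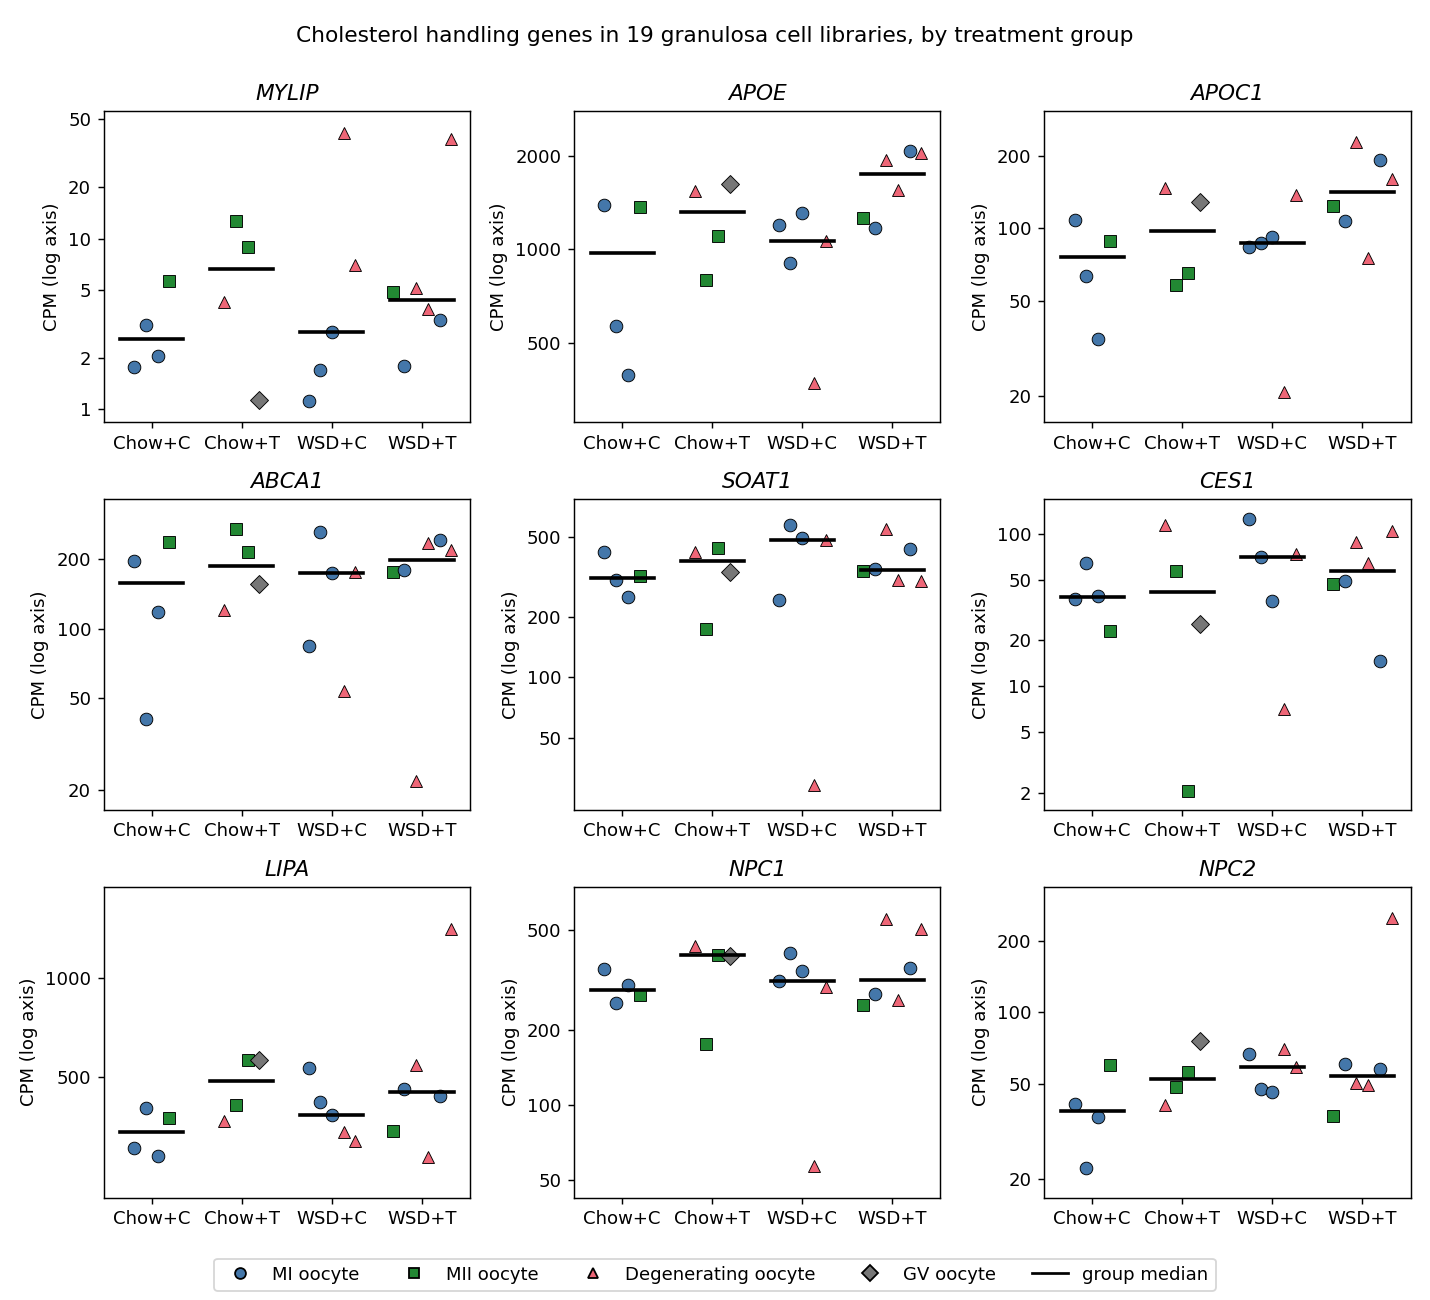
CPM on a log axis of the 9 genes in each of 19 libraries by treatment group, with the oocyte class as colour and shape and the group median as a line. The groups overlap for each gene, APOE and APOC1 have their highest group medians in WSD+T, and WSD+C 4 is the lowest library for APOE, APOC1, SOAT1 and NPC1.

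Among the genes of efflux, APOE and APOC1, neighbouring genes of lipoprotein particles, had their highest levels in WSD+T. APOE was at 1391, 567, 393 and 1374 CPM in Chow+C 1 to 4, at 1540, 798, 1103 and 1621 CPM in Chow+T 1 to 4 and at 1198, 906, 1314, 370 and 1065 CPM in WSD+C 1 to 5. In WSD+T it ranged from 1169 to 2070 CPM with a median of 1750 CPM (1675 ± 401, n = 6). Of the 6 WSD+T libraries, 4 lay above the highest Chow+C library and 4 above the highest WSD+C library, and the groups overlapped. The difference was 1.80-fold against Chow+C (95% CI 1.03 to 3.15, adjusted p = 0.717) and 1.73-fold against WSD+C (95% CI 1.02 to 2.92, adjusted p = 0.999). Against WSD+C the log2 fold change of APOE was 0.79, and 0.58 without WSD+C 4. The average testosterone effect over both diets was 1.53-fold (95% CI 1.02 to 2.29, adjusted p = 0.767). No adjusted p passed, with 0% of 15019 genes called in each of these 3 comparisons.

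APOC1, an apolipoprotein of the same particles, was at 108.4, 63.2, 34.7 and 88.9 CPM in Chow+C 1 to 4 and at 146.5, 58.1, 65.4 and 129.0 CPM in Chow+T 1 to 4. It was at 83.7, 86.6, 92.1, 20.9 and 137.8 CPM in WSD+C 1 to 5, and ranged in WSD+T from 75.4 to 228.0 CPM with a median of 141.8 CPM (147.8 ± 56.7). The groups overlapped, with 4 of 6 WSD+T libraries above the highest Chow+C library. The difference from Chow+C was 2.00-fold (95% CI 1.06 to 3.78, adjusted p = 0.717), and that from WSD+C was 1.75-fold (95% CI 0.968 to 3.18, adjusted p = 0.999). Against WSD+C the log2 fold change of APOC1 was 0.81, and 0.57 without WSD+C 4. Leaving out each library in turn kept the log2 fold change in WSD+T against Chow+C between 0.59 and 1.11 for APOE and between 0.77 and 1.25 for APOC1.

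The levels of APOE and APOC1 followed each other across libraries. Pearson's r of their log2 CPM was 0.90 (n = 19, permutation p = 1e-05, the smallest that 100000 permutations give, adjusted p = 0.00036 over 36 pairs of members) and Spearman's rho was 0.80 (permutation p = 7e-05, adjusted p = 0.0025). With Chow+C 3 and WSD+C 4, which lay farthest from the median of APOE, left out, r was 0.77, and after subtracting the treatment group means it was 0.86. This was the 1 pair of 36 in which both measures passed after adjustment. In the RefSeq gene order the 2 genes are 1 step apart, and the libraries carry no strand information, so reads from any overlapping transcripts would be counted without regard to strand.

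ABCA1, the transporter that passes cholesterol to lipid-poor apolipoproteins, was at 196.8, 40.6, 117.9 and 236.4 CPM in Chow+C 1 to 4. It was at 120.0, 270.4, 215.2 and 156.4 CPM in Chow+T 1 to 4 and at 84.2, 261.1, 174.9, 53.5 and 176.6 CPM in WSD+C 1 to 5. In WSD+T it ranged from 21.9 CPM in WSD+T 3 to 242.5 CPM, with a median of 199.2 CPM. The groups overlapped, and the lowest libraries came from Chow+C, WSD+C and WSD+T. Between ABCA1 and APOE r was 0.27 (permutation p = 0.26, adjusted p = 0.47) and rho was 0.17 (permutation p = 0.48, adjusted p = 0.85), with r = 0.54 without Chow+C 2 and WSD+T 3, the libraries farthest from the median of ABCA1. The difference of ABCA1 in WSD+T against Chow+C was 1.21-fold with an interval from 0.539 to 2.71 (adjusted p = 0.923). Differences of this size in either direction were thus not excluded. Its log2 fold change there was 0.27, and -0.04 without Chow+C 2. In Chow+T against Chow+C it was 0.36, and 0.05 without Chow+C 2.

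**Figure D3:**
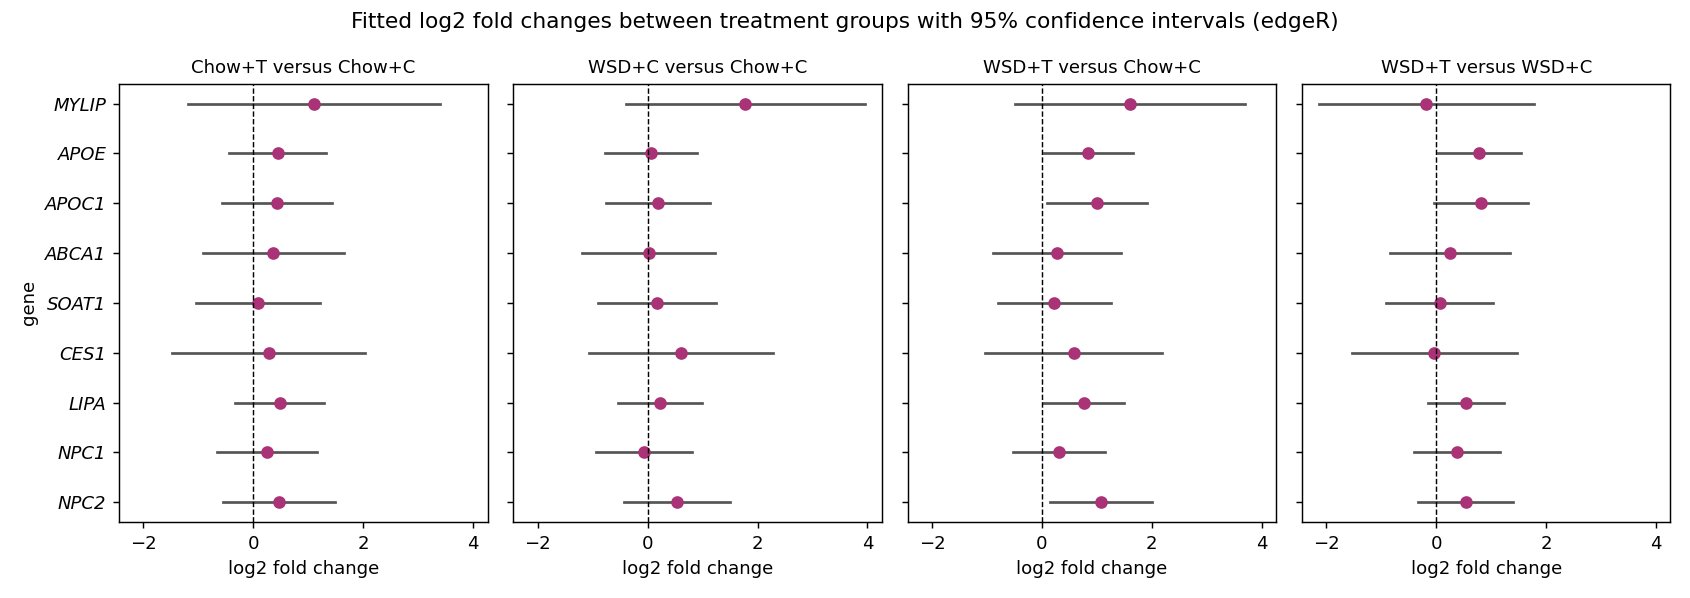
Fitted log2 fold changes of the 9 genes in 4 comparisons between treatment groups, with 95% confidence intervals and a dashed line at no difference. In WSD+T against Chow+C the intervals of APOE, APOC1, LIPA and NPC2 lie above 0, and their adjusted p is 0.717.

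Of the genes of ester storage, SOAT1, which esterifies cholesterol in the endoplasmic reticulum, was at 420.3, 304.8, 250.3 and 317.2 CPM in Chow+C 1 to 4 and at 419.9, 174.1, 441.0 and 333.8 CPM in Chow+T 1 to 4. It was at 242.0, 571.8, 489.8, 29.2 and 479.6 CPM in WSD+C 1 to 5, and ranged in WSD+T from 302.3 to 543.6 CPM with a median of 342.6 CPM. WSD+C 4 was the one library far below the others: the highest library was 19.6 times the lowest with it and 3.29 times without it. In the 5 comparisons between treatment groups the log2 fold changes of SOAT1 lay between 0.06 and 0.23 and their unadjusted p between 0.651 and 0.895. Without WSD+C 4 the log2 fold change was 0.46 in WSD+C against Chow+C and -0.23 in WSD+T against WSD+C.

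CES1 is a carboxylesterase of the endoplasmic reticulum that cuts many esters and has been described as a cholesteryl ester hydrolase in human macrophages. It was at 37.7, 64.9, 39.5 and 23.0 CPM in Chow+C 1 to 4, at 114.8, 57.2, 2.06 and 25.7 CPM in Chow+T 1 to 4 and at 126.3, 70.6, 36.5, 7.12 and 73.9 CPM in WSD+C 1 to 5. In WSD+T it ranged from 14.6 to 104.8 CPM with a median of 57.0 CPM. Its highest library was 61.3 times its lowest, the widest range of the 9 genes, and the SD of its log2 CPM was 1.47, against a median of 0.55 over all genes tested. The extremes fell in different groups, and no comparison of CES1 had an unadjusted p under 0.3. Carboxylesterase genes are a family of close copies, so that the reads assigned to CES1 are uncertain.

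Among the lysosomal genes, LIPA, the acid lipase, was at 304.4, 402.4, 287.9 and 374.4 CPM in Chow+C 1 to 4, at 368.6, 409.7, 564.0 and 564.3 CPM in Chow+T 1 to 4 and at 533.2, 420.5, 382.8, 339.4 and 319.6 CPM in WSD+C 1 to 5. In WSD+T it ranged from 286.3 to 1408 CPM with a median of 450.3 CPM. The highest value was that of WSD+T 6, and the next highest of the whole set was 564.3 CPM. The difference in WSD+T against Chow+C was 1.70-fold (95% CI 1.02 to 2.82, log2 fold change 0.76, adjusted p = 0.717), and without WSD+T 6 the log2 fold change was 0.28.

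NPC2, the soluble carrier of lysosomal cholesterol, had the same library on top. It was at 41.2, 22.3, 36.3 and 60.2 CPM in Chow+C 1 to 4, at 41.1, 48.7, 56.2 and 75.9 CPM in Chow+T 1 to 4 and at 67.0, 47.7, 46.2, 70.1 and 58.8 CPM in WSD+C 1 to 5. In WSD+T it ranged from 36.7 to 249.3 CPM with a median of 54.3 CPM, close to the WSD+C median of 58.8 CPM. The difference in WSD+T against Chow+C was 2.10-fold (95% CI 1.11 to 4.00, log2 fold change 1.07, adjusted p = 0.717), and without WSD+T 6 the log2 fold change was 0.35. WSD+T 6 was also the library with the highest macrophage markers, with CD163 and MRC1 together at 966.9 CPM against a median of 2.24 CPM over all libraries.

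NPC1, the membrane protein that exports lysosomal cholesterol, was at 351.6, 255.4, 303.4 and 276.2 CPM in Chow+C 1 to 4, at 433.7, 175.0, 400.0 and 396.2 CPM in Chow+T 1 to 4 and at 314.9, 405.1, 342.4, 56.8 and 298.0 CPM in WSD+C 1 to 5. In WSD+T it ranged from 252.3 to 554.0 CPM with a median of 316.0 CPM. Apart from WSD+C 4 its libraries lay within a 3.17-fold range. Its difference in WSD+T against Chow+C was 1.24-fold (95% CI 0.697 to 2.21, adjusted p = 0.859). SOAT1 and NPC1 were both lowest in WSD+C 4: their r was 0.90 (n = 19, permutation p = 0.00011, adjusted p = 0.002) with rho at 0.58 (permutation p = 0.012, adjusted p = 0.11), and r was 0.47 when WSD+C 4 and Chow+T 2, farthest from the median of SOAT1, were left out. LIPA and NPC2 gave an r of 0.78 (permutation p = 0.0029, adjusted p = 0.017) and a rho of 0.52 (permutation p = 0.024, adjusted p = 0.12). Leaving out WSD+T 4 and WSD+T 6, farthest from the median of LIPA, lowered r to 0.41, so that the relation rested on those libraries.

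**Figure D4:**
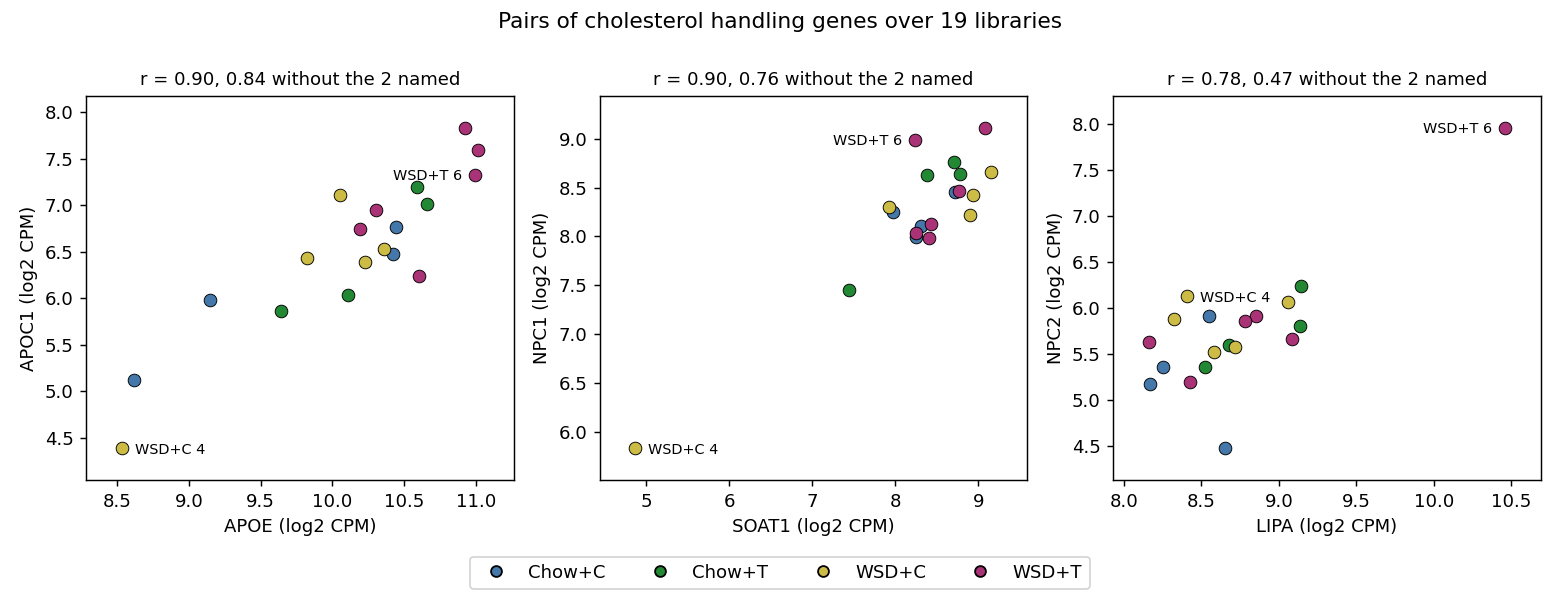
Log2 CPM of 3 pairs of members in the 19 libraries, coloured by treatment group, with Pearson's r over all libraries and without the libraries named in the plot. APOE and APOC1 keep r = 0.84 without WSD+C 4 and WSD+T 6, SOAT1 and NPC1 have r = 0.76 and LIPA and NPC2 have r = 0.47.

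Read together by treatment, 9 of 9 members were higher in the fitted mean of WSD+T than of Chow+C, beside 49.9% of all genes. Their median log2 fold change was 0.76, against -0.0009 over all 15019 genes. For Chow+T 9 of 9 were higher than in Chow+C, beside 48.2% of genes (median 0.43, against -0.02). For WSD+C 8 of 9 were, beside 52.6% (0.19, against 0.02). These 3 comparisons share the Chow+C libraries, and members such as APOE and APOC1 are not independent of each other. Only APOE, APOC1, SOAT1, LIPA and NPC2 stayed higher in WSD+T under each alternative processing and left-out library. In Chow+T only ABCA1, APOE and LIPA did, and in WSD+C only CES1, LIPA and NPC2. At an unadjusted p under 0.05, 4 of 9 members were higher in WSD+T than in Chow+C, beside 3.06% of all genes, and none was lower, beside 3.69%. In Chow+T and in WSD+C against Chow+C none of the 9 was past it, beside 7.18% and 5.08% of genes in either direction. In WSD+T against WSD+C 1 member, APOE, was past it and higher, beside 0.699% of genes higher and 3.16% lower. In WSD+T against Chow+T none was, beside 4.97% in either direction. After adjustment edgeR called 0 genes in each of the 8 treatment comparisons. No member had groups free of overlap in any of the 5 comparisons between treatment groups, beside 2.66% of genes in Chow+T, 0.553% in WSD+C and 0.739% in WSD+T against Chow+C, and 0.0732% and 1.17% in WSD+T against WSD+C and Chow+T. Without WSD+C 4 and WSD+T 6 the log2 fold changes in WSD+T against Chow+C were 0.78 for APOE, 0.98 for APOC1, 0.27 for LIPA and 0.35 for NPC2.

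The main effect of the diet and the interaction gave no member below an unadjusted p of 0.05 either, beside 6.87% and 4.52% of genes. For the diet the nearest was NPC2 (1.48-fold, 95% CI 0.933 to 2.35, log2 fold change 0.57, adjusted p = 0.783), and without WSD+T 6 its log2 fold change was 0.21. For the testosterone main effect APOE was 1 of 9, beside 6.31% of genes, followed by LIPA (1.42-fold, 95% CI 0.985 to 2.06) and APOC1 (1.54-fold, 95% CI 0.975 to 2.43), each with an adjusted p of 0.767. The log2 fold change of LIPA for testosterone was 0.51, and 0.27 without WSD+T 6. That of APOC1 was 0.62, and 0.50 without WSD+C 4. The interaction intervals were wide: that of APOE ran from 0.565 to 2.85-fold and that of MYLIP from 0.0509 to 3.34-fold. The log2 interaction of MYLIP, -1.28 over all libraries, turned to 0.50 when WSD+C 4 was left out and was -2.61 when WSD+T 6 was.

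Besides MYLIP, the members showed overlapping levels between oocyte classes. APOE had a median of 1184 CPM in MI, 1184 CPM in MII and 1547 CPM in Degenerating libraries, and NPC2 had medians of 47.0, 52.4 and 54.7 CPM. In Degenerating against MI their fitted differences were 1.03-fold for APOE (95% CI 0.579 to 1.83, adjusted p = 0.968) and 1.59-fold for NPC2 (95% CI 0.876 to 2.89, adjusted p = 0.453). The difference of NPC2 rested on WSD+T 6, a Degenerating library: its log2 fold change was 0.67 with that library and 0.10 without it. For APOE the log2 fold change was 0.04, and 0.35 without WSD+C 4. CES1 had the lowest fold in MII against MI, 0.531 (95% CI 0.145 to 1.94, adjusted p = 1), with medians of 34.8 CPM in MII and 44.3 CPM in MI. The single GV library was inside the range of the other libraries for each of the 9 genes.

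Whether APOE, APOC1, LIPA and CES1 followed macrophage content was asked by relating each gene to the macrophage score over the 19 libraries. Neither CD163 nor MRC1 was at 1 CPM or more in every library. Together they ranged from 0.39 to 966.9 CPM, with a median of 2.24 CPM. The score thus rests on few reads in many libraries, so a low r does not show that a gene is free of macrophage RNA. APOE gave r = 0.05 (permutation p = 0.85, adjusted p = 0.98 over the 9 relations) and rho = 0.16 (permutation p = 0.51, adjusted p = 0.85). APOC1 gave r = 0.03 (permutation p = 0.9, adjusted p = 0.98) and rho = 0.26 (permutation p = 0.28, adjusted p = 0.85). CES1 gave r = 0.01 (permutation p = 0.98, adjusted p = 0.98) and rho = -0.13 (permutation p = 0.6, adjusted p = 0.85). Leaving out WSD+T 6 and WSD+C 4, whose scores lay farthest from the median, these r values were 0.15, 0.27 and 0.04. Leaving out WSD+C 4 alone, they were 0.32, 0.36 and 0.19, and leaving out WSD+T 6 alone, -0.19, -0.16 and -0.19. Within the 6 WSD+T libraries they were 0.55, 0.51 and 0.46 (exact permutation test, adjusted p = 0.42 for each). With the score as a covariate, the log2 fold changes in WSD+T against Chow+C were 0.92 for APOE and 1.07 for APOC1, as large as without it.

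For LIPA the relation rested on WSD+T 6. Over the 19 libraries its r was 0.43 (permutation p = 0.07, adjusted p = 0.2) and its rho was -0.08 (permutation p = 0.76, adjusted p = 0.85), and r was -0.13 without WSD+T 6 and WSD+C 4. NPC2 was alike: its r was 0.57 (permutation p = 0.02, adjusted p = 0.092), its rho was 0.16 (permutation p = 0.51, adjusted p = 0.85), and r was -0.060 when the same libraries were left out. Within the 6 WSD+T libraries, WSD+T 6 included, r was 0.86 for LIPA (exact permutation p = 0.046, adjusted p = 0.21). For NPC2 it was 0.76 there (exact permutation p = 0.14, adjusted p = 0.32). With the score as a covariate, the log2 fold changes in WSD+T against Chow+C were 0.42 for LIPA and 0.50 for NPC2.

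MYLIP was the only member whose relation with the score passed the threshold after adjustment. Its r was 0.82 (n = 19, permutation p = 8e-05, adjusted p = 0.00072) and its rho was 0.65 (permutation p = 0.0028, adjusted p = 0.025). After subtracting treatment group means r was 0.82, within the 6 WSD+T libraries it was 0.95 (exact permutation p = 0.0069, adjusted p = 0.062), and it was 0.61 (permutation p = 0.0097, adjusted p = 0.087) once WSD+T 6 and WSD+C 4 were left out. MYLIP was also lower where granulosa markers were higher, with r at -0.76 (permutation p = 0.0002, adjusted p = 0.0018) and rho at -0.67 (permutation p = 0.0022, adjusted p = 0.02). Leaving out WSD+C 4 and Chow+T 2, whose granulosa scores lay farthest from the median, r was -0.61. SOAT1 and NPC1 gave r = 0.80 (permutation p = 0.0066, adjusted p = 0.02) and r = 0.82 (permutation p = 0.0018, adjusted p = 0.0081) with the granulosa score, with rho at 0.34 (permutation p = 0.15, adjusted p = 0.35) and 0.46 (permutation p = 0.045, adjusted p = 0.2). Without the same libraries r was -0.05 for SOAT1 and 0.17 for NPC1, so both relations rested on them.

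**Figure D5:**
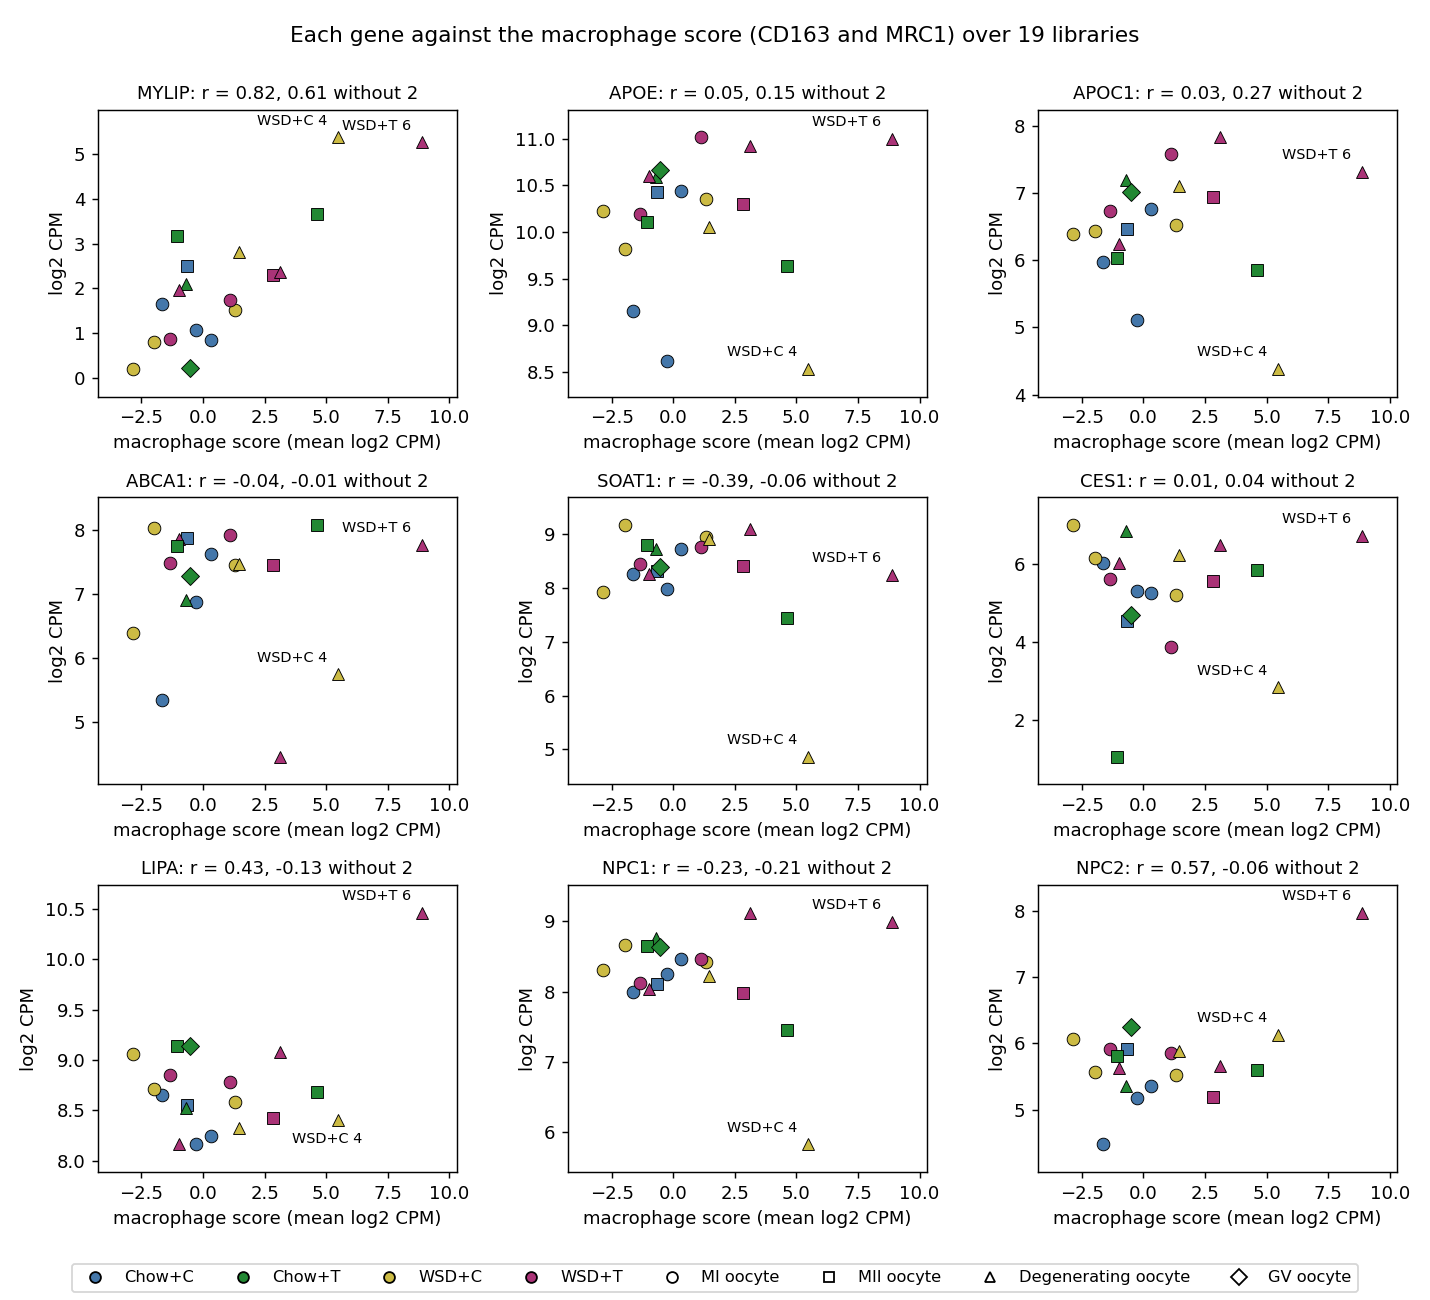
Log2 CPM of each gene against the macrophage score, the mean log2 CPM of CD163 and MRC1, in the 19 libraries, with colour for the treatment group and shape for the oocyte class. Each panel gives r over all libraries and without WSD+C 4 and WSD+T 6: MYLIP has 0.82 and 0.61, while APOE, APOC1 and CES1 stay between 0.01 and 0.27.

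Of 38 other genes of cholesterol handling listed for uptake, storage, transport within the cell, efflux and control, 36 were in the table and 35 were tested. None was called in any of the 10 comparisons. In WSD+T against Chow+C 2 of 35 were higher and 1 was lower at an unadjusted p under 0.05, beside 3.06% and 3.69% of all genes. The 2 with the smallest p were OSBPL1A, a carrier of oxysterols between membranes (1.58-fold, 95% CI 1.09 to 2.30, adjusted p = 0.717), and SOAT2, the other sterol esterifying enzyme (adjusted p = 0.717). SOAT2 had 0 to 31 counts in 17 libraries, 169 in WSD+C 4 and 654 in WSD+T 6, so that most of its counts lay in the libraries that stand apart. In the interaction, ABCA7, a transporter related to ABCA1 (log2 difference 1.64, or 1.02 without Chow+C 2, adjusted p = 0.933 with all libraries), and SREBF1, a transcription factor of lipid synthesis (log2 difference 1.32, adjusted p = 0.933), came first. The same genes led several other comparisons, none past the threshold. In Chow+T against Chow+C they were ABCA7 (log2 fold change -1.01) and OSBPL1A (0.57), with ABCA7 at -0.39 without Chow+C 2, and in WSD+C against Chow+C they were SREBF1 (-0.92) and RXRB (-0.40), a partner of nuclear receptors such as LXR. In WSD+T they were SREBF1 (0.67) and ABCA7 (0.63) against WSD+C, and ABCA7 (0.87) and SOAT2 against Chow+T. For the testosterone main effect OSBPL1A (0.48) and SCP2 (0.30), a sterol carrier, came first, and for the diet RXRB (-0.32) and SOAT2. Over all libraries RXRB was highest in Chow+C 2 (120.2 CPM) and SREBF1 was lowest in WSD+C 4 (18.2 CPM).

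In MII against MI the 2 with the smallest p were INSIG1 (-1.02), which retains the sterol sensor SCAP, and SREBF1 (-0.78). In Degenerating against MI, 3 of 35 of these genes were higher and 2 were lower at an unadjusted p under 0.05, beside 9.82% and 4.45% of all genes. First were ABCG1, a transporter that passes cholesterol to HDL (adjusted p = 0.169), and SOAT2 (adjusted p = 0.171). ABCG1 had 0 to 47 counts in 17 libraries, 278 in WSD+C 4 and 478 in WSD+T 6.

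The genes whose levels over the 19 libraries were most like those of each member were ranked by Spearman's rho among 11084 genes. For MYLIP they were JMJD1C (0.89), CFP (0.86) and CDK5R1 (0.86). For APOE they were CENPB (0.86), PTER (0.82) and LCN2 (0.81), and for APOC1 they were MAOA (0.84), FTH1 (0.83) and TTC7A (0.83). For ABCA1, BROX (0.81) and KBTBD2 (0.81) came first. SOAT1 was most like TGM2 (0.83), VCP (0.83) and NFS1 (0.81), and CES1 like PCSK5 (0.81), AP3M2 (0.78) and CCDC97 (0.75). LIPA was most like ANKRD55 (0.85), NDUFV1 (0.83) and SLC17A5 (0.81), NPC1 like IL6ST (0.89), AGFG1 (0.89) and TMEM189 (0.85), and NPC2 like EIF3G (0.92), RAP1A (0.88) and QARS (0.87). No member was among the 3 genes most like another, and genes are not independent of each other in this ranking.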

How the data were processed

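Each of 19 libraries is 1 animal. Per the labels' protocols, RNA was isolated with a Promega ReliaPrep kit and made into polyA-selected libraries with a kit that does not mark strand. The authors deposited raw read counts per gene in 1 table. Trimmomatic and STAR are named in the submitters' processing notes. The build and the gene annotation behind the counts are not given in these sources, so no coordinates or sequences are printed. The 4 rows of unassigned reads (no gene, several genes, several places, unmapped) were left out, and 49.1% to 69.1% of reads fell in genes. No 2 libraries held identical counts. Reads carry no molecular identifiers, so depth limits counting error only.

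The counts were tested with edgeR 4.0.16 in R 4.3.3 (filterByExpr, minimum count 10 and total 15, TMM, robust quasi-likelihood test, two-sided, Benjamini-Hochberg over all genes, threshold 0.05). One fit of the 4 treatment groups used 15019 genes and 19 libraries. A second fit of oocyte classes, with treatment group as a term, used 14976 genes and 18 libraries, since the GV class has no replicate. All 9 members passed the filter in both. The common biological coefficient of variation was 0.583 in the first fit. CPM are TMM-scaled, and log2 CPM use a prior count of 1. Relations used 100000 permutations, adjusted over the 9 members for each score and over 36 pairs between members. The scripts were tested on simulated counts with known fold changes. DESeq2 1.42.0, limma 3.58.1, other scalings, filters, covariates and left-out libraries were tried as alternatives.

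The members, gene lists and tests were chosen with earlier results of these data known. All members are named. Of the other cholesterol genes, those called, or else the 2 with the smallest p in a comparison, are named. A few results for other genes are not reported here.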

Additional observations from a re-analysis of the deposited data

Results flagged for a closer look

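In 7 of 36 combinations of a member and a treatment group, 1 library lay farther from its group than Dixon's 95% criterion allows, where chance gives about 1 in 20. The ratios in brackets are the gap to the nearest library divided by the range of the group, both taken on log2 CPM. In WSD+C, replicate 4 was lowest for APOC1 (20.9 CPM, 0.7358), SOAT1 (29.2 CPM, 0.711) and NPC1 (56.8 CPM, 0.8436). In WSD+T, replicate 6 was highest for MYLIP (38.4 CPM, 0.6604) and NPC2 (249.3 CPM, 0.7386), and replicate 3 was lowest for ABCA1 (21.9 CPM, 0.8674). In Chow+T, replicate 2 was lowest for NPC1 (175.0 CPM, 0.9003). WSD+C 4 had the lowest and Chow+T 2 the next lowest granulosa score, and WSD+T 6 the highest macrophage score; their part in these values was not tested. WSD+T 3, with ABCA1 at 21.9 CPM, had the highest APOC1 and NPC1 of the 19 libraries. No interaction of testosterone and diet passed the threshold for a member.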

How the results depend on the processing

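No paired analysis was possible because replicate numbers were given in the order of the samples and each library is another animal. Of 2754 alternative log2 fold changes of the members, 274 changed sign, in 58 of 90 results. Those that changed sign inside the 95% interval of a value that had not passed are not listed. The directions of APOE kept their sign under each alternative in 7 of 10 comparisons, those of APOC1 in 6 and those of NPC1 in 0. The causes of the changes below were not tested.

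DESeq2 called 5 genes in Chow+T against Chow+C, 3 in WSD+T against Chow+C, 4 in WSD+T against Chow+T, 3 for testosterone, 5 for diet, 3 for the interaction, 6 in MII against MI and 801 in Degenerating against MI, where edgeR called 0. With MI and MII libraries alone edgeR called 4 genes in Chow+T against Chow+C and 1 in WSD+T against Chow+T. In Degenerating against MI it called 574 without a treatment term and 1 without Chow+C 2, WSD+C 4 and WSD+T 6. Leaving out each library gave 0 to 226 there (226 without Chow+T 1, with MYLIP at an adjusted p of 0.0461 in edgeR), 0 to 1 for diet and 0 elsewhere. MYLIP also passed without the treatment term (adjusted p = 0.0228 in edgeR).

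MYLIP, not past the threshold by treatment, turned to -0.75 in WSD+C against Chow+C and -1.71 in WSD+T against Chow+T with MI and MII libraries alone. Its diet effect turned to -1.23 there, -0.42 without WSD+C 4 and WSD+T 6, -0.42 without Chow+C 2 as well, -0.44 with the macrophage score as a covariate, and, added after the data were seen, -0.40 with the leukocyte score and -0.56 with the macrophage score and without WSD+C 4.

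Relations with the macrophage score past the threshold numbered 1, and 0 both without the 2 farthest libraries and without WSD+C 4 and WSD+T 6 (the same libraries), where r was -0.13 for LIPA and -0.060 for NPC2. Leaving out each library gave 1 to 2 (2 without WSD+C 1), and r from -0.20 to 0.53 for LIPA (lowest without WSD+T 6). Relations with the granulosa score numbered 3, 0 without the 2 farthest libraries (r = -0.094 for APOE, -0.22 for APOC1 and -0.049 for SOAT1), 5 with group means subtracted and 1 to 5 leaving out each library. There r of APOC1 ran from -0.0095 without WSD+C 4 to 0.64, and r of NPC2 was 0.45 without WSD+C 4 and WSD+T 6.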
